A study of Homo sapiens with 8 samples.

Results

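The MYC, MAX and MXD network is a group of 10 genes, MYC, MYCN, MYCL1, MAX, MXD1, MXD3, MXD4, MXI1, MNT and MGA, out of 23885 genes measured in HCT-116 cells. Its members were chosen by gene symbol, with the transcript of the highest mean read count standing for each gene. HCT-116 is an established human colorectal cancer cell line. Cells were given 5-fluorouracil (5-FU, 40 µM) or its vehicle DMSO for 12 h, washed, and then given 3-MB-PP1 (2.5 µM) or DMSO for 4 h. The 4 groups, each of 2 libraries, were 5-FU followed by 3-MB-PP1 (5-FU/3-MB-PP1), 5-FU followed by DMSO (5-FU/DMSO), DMSO followed by 3-MB-PP1 (DMSO/3-MB-PP1) and DMSO followed by DMSO (DMSO/DMSO). 5-FU is a pyrimidine drug that disturbs thymidylate and RNA metabolism and activates p53. 3-MB-PP1 is a bulky inhibitor made for kinases whose ATP pocket has been enlarged by mutation, and the series is about inhibition of CDK7, a kinase of the general transcription machinery. Whether the cells carried an enlarged CDK7 is not stated in the labels, and no group of cells without such a kinase was analysed here, so an action of 3-MB-PP1 through other kinases cannot be told apart.

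MYC is a short-lived transcription factor that binds DNA at E-boxes, with the core CACGTG, as a dimer with MAX, and raises the expression of genes for growth, ribosome assembly and cell division. MAX also pairs with MXD1, MXD3, MXD4, MXI1, MNT and MGA, which compete for MAX and for the same sites and recruit corepressors, so that the network is usually read as a balance between MYC and its antagonists. In colorectal cancer MYC is known as a target of the WNT pathway, and its messenger RNA turns over quickly.

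Promoters of MXD4 and MNT are shown because they hold the E-box of the network itself. That of MXD3 is shown because a transcript of this gene fell with 5-FU. The window was taken by gene symbol, and whether it holds the start of that transcript was not checked. Each window holds 300 bases, most of them before the RefSeq start, on assembly GRCh38.p14, all on the minus strand and read 5′ to 3′. Capitals mark CACGTG in MXD4 and MNT, and an E2F-like TTTCGCG in MXD3.
MXD4, chr4:2262060-2262359: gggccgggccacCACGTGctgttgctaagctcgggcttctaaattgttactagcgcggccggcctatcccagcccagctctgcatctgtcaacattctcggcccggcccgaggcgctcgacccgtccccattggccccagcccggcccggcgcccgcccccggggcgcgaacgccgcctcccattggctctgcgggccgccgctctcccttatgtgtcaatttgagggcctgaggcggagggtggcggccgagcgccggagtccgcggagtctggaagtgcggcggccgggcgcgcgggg
MNT, chr17:2401011-2401310: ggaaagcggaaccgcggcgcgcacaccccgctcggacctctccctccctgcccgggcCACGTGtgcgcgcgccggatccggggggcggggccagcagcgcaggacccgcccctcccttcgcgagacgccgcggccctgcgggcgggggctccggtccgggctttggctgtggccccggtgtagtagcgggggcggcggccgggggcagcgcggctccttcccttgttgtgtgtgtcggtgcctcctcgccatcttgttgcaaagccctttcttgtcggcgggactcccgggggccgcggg
MXD3, chr5:177312703-177313002: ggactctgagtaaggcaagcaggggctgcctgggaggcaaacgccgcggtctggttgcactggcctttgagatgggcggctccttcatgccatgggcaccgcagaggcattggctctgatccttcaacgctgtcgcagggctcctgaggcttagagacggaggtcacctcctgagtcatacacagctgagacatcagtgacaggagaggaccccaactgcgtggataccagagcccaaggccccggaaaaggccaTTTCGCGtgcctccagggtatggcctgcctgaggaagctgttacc
Of 9 members with a promoter in the RefSeq table used (14 windows, MYC not used here), MXD4 and MNT held CACGTG, at positions 13 and 58 of the window. Both strands were searched, and CACGTG stood in 2 of the 14 windows and in 7.26% of 35116 promoters of the same length. TTTCGCG or TTTGGCG, on either strand, stood in 3 of the 14 windows, those of MXD3, MGA and MYCN, and in 3.19% of all promoters. A match describes these letters and is not a measured binding site.

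Counts over all genes ranged from 10580105 to 50501212 per library, and log2 levels correlated at 0.993 to 0.994 between the libraries of a group. DMSO/3-MB-PP1 replicate 1 was the deepest library. The labels do not state whether the libraries of a group stem from separate cultures. What the p-values weigh is therefore the scatter among these libraries alone, which may be technical. Of 13 intestinal epithelial marker genes, 10 stood above 1 CPM (read counts scaled to a common library total, after TMM) in every library and CDX1 was at 0. The summed level of the 13 was 4328 to 4385 CPM in 5-FU/3-MB-PP1, 4960 to 4961 CPM in 5-FU/DMSO, 2948 to 2978 CPM in DMSO/3-MB-PP1 and 2807 to 2937 CPM in DMSO/DMSO cells. Most of this sum came from KRT8, KRT18 and KRT19. With 5-FU alone 7 of 11 tested markers rose (63.6%, against 21.2% of all tested genes) and 2 fell (18.2%, against 22.7%). Those that fell were EPCAM and KRT20. EPCAM was at 166 and 169 CPM in 5-FU/DMSO against 213 and 218 CPM in DMSO/DMSO cells. KRT20 was at 1.95 CPM or less in every library. Of 9 markers of blood, vessel and connective tissue cells, COL1A2 and DCN were at 0, and the summed level lay between 27.96 and 35.2 CPM. KDR, a vessel marker, rose with 3-MB-PP1 alone, to 4.75 ± 0.34 CPM in DMSO/3-MB-PP1 against 1.19 ± 0.25 CPM in DMSO/DMSO cells (log2 fold change 2.02, SE 0.24), and with 3-MB-PP1 after 5-FU (1.73, SE 0.29). KDR was the only one of the 4 tested markers of this list called in either comparison. PECAM1, also a vessel marker, was at 5.93 and 4.80 CPM in DMSO/3-MB-PP1 and 7.55 and 5.94 CPM in DMSO/DMSO cells. After 5-FU it was at 5.14 and 5.09 CPM with 3-MB-PP1 and 5.13 and 5.64 CPM with DMSO. The part of these marker genes in the results was not tested. CDKN1A, the p53 target that encodes the cell-cycle inhibitor p21, was at 848 and 817 CPM in 5-FU/3-MB-PP1, 1584 and 1491 CPM in 5-FU/DMSO, 170 and 163 CPM in DMSO/3-MB-PP1, and 192 and 198 CPM in DMSO/DMSO cells.

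TMM sets levels relative to the other genes of a library, so a change shared by all genes, or less RNA per cell against fewer cells, cannot be told apart in these bulk samples. ERCC spike-ins, synthetic RNAs added in known amounts, took 1.13% to 2.19% of all listed counts, and this share differed between libraries of a group, as with 2.19% and 1.31% in DMSO/DMSO cells. With library sizes set from the spike-ins the standard error of MYC grew to between 0.49 and 0.70 on the log2 scale, and no member passed the test in any comparison (edgeR). At an unadjusted p under 0.05, 1 member passed with 5-FU alone, 2 with 3-MB-PP1 after 5-FU and 2 with both drugs. Of all 15723 genes tested, 1132, 563 and 1540 passed at that threshold in the same comparisons. MYC kept its direction in each comparison, with an adjusted p of 0.0537 for 3-MB-PP1 after 5-FU.

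A gene was called changed at an adjusted p under 0.05 in edgeR's quasi-likelihood F test, adjusted by Benjamini-Hochberg over all 15723 tested genes. Of the 10 members, 9 passed the filter on low counts and were tested, and MYCN was not. With 5-FU alone (5-FU/DMSO against DMSO/DMSO), 4 of the 9 rose, MYC, MAX, MXD4 and MNT, and the other 5 were not called. Among all tested genes 43.9% were called in that comparison, 21.2% higher and 22.7% lower. With 3-MB-PP1 alone (DMSO/3-MB-PP1 against DMSO/DMSO), 4 of the 9 fell, MYC, MAX, MXI1 and MGA, where 28.5% of all tested genes were called, 16.9% lower and 11.5% higher. With 3-MB-PP1 after 5-FU (5-FU/3-MB-PP1 against 5-FU/DMSO), 6 of the 9 fell, MYC, MAX, MXD4, MXI1, MNT and MGA, where 32.9% were called, 17.2% lower and 15.7% higher.

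With 5-FU before 3-MB-PP1 (5-FU/3-MB-PP1 against DMSO/3-MB-PP1), MAX, MXD1 and MXD4 rose and MYC and MGA fell, where 39.5% of all tested genes were called, 19.6% higher and 19.8% lower. With both drugs (5-FU/3-MB-PP1 against DMSO/DMSO), MXD4 rose and MYC, MXI1 and MGA fell, where 50.1% were called, 23.9% higher and 26.2% lower. The interaction, which is the effect of 3-MB-PP1 after 5-FU minus its effect without 5-FU, was called for 1 member, MYC, with a negative sign, and for 4.1% of all tested genes, 2.11% with a positive and 2% with a negative sign. These comparisons share groups of libraries, so their results are not independent of each other. The kept transcripts lie on the genome build hg19 at chr1:40361095-40367687 (MYCL1), chr14:65541841-65569262 (MAX), chr2:70142172-70170076 (MXD1), chr4:2249159-2263739 (MXD4), chr10:111967362-112047123 (MXI1), chr17:2287353-2304258 (MNT) and chr15:41952609-42062141 (MGA), with MYC on chromosome 8. Of the 24 called member values, 18 stayed called in every alternative setting in which they were computed other than the spike-in scaling (15 settings, or 14 for the interaction), and the direction of none turned.

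**Figure D1:**
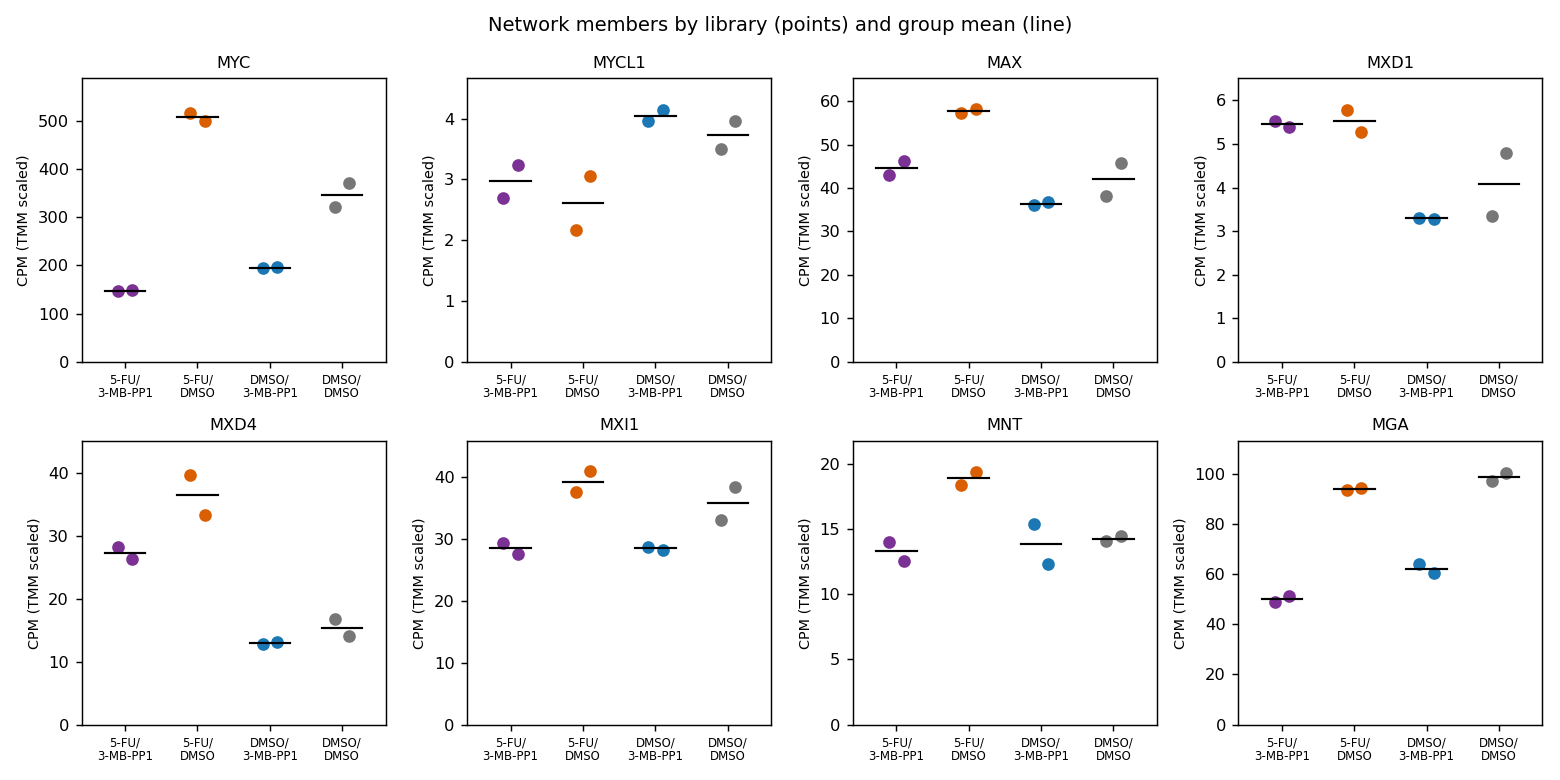
Level of 8 network members in CPM, with 1 point per library and a line at the mean of each group of 2 libraries. MYC lay between 146 and 148 CPM in 5-FU/3-MB-PP1 cells and between 499 and 516 CPM in 5-FU/DMSO cells, the lowest and the highest of the 4 groups.

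**Figure D2:**
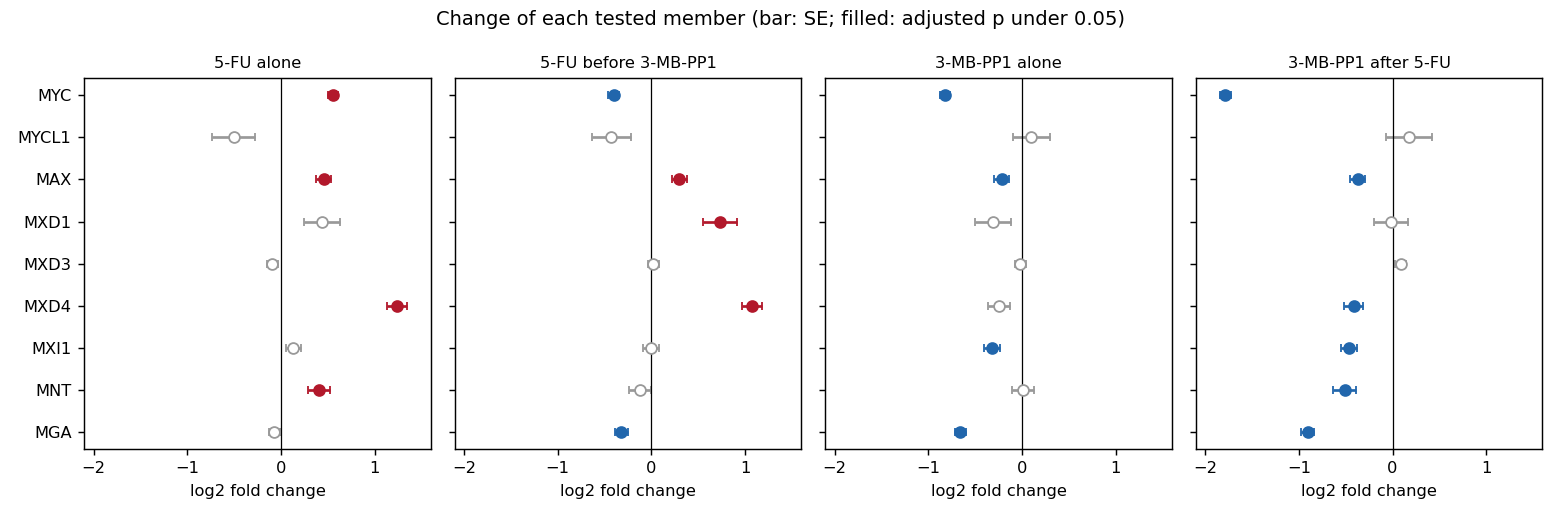
Log2 fold change of the 9 tested members in 4 comparisons, with the standard error as a bar and a filled point where the adjusted p was under 0.05. MYC stood to the right of 0 with 5-FU alone (0.56) and to the left with 5-FU before 3-MB-PP1 (-0.40), while MXD4 stood to the right in both (1.24 and 1.07).

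MYC, the driver of the network, reached 146 and 148 CPM in 5-FU/3-MB-PP1, 516 and 499 CPM in 5-FU/DMSO, 195 and 196 CPM in DMSO/3-MB-PP1, and 320 and 370 CPM in DMSO/DMSO cells. The libraries of the 4 groups did not overlap, and every neighbouring pair of groups in the order of their levels differed past the threshold. 5-FU alone gave 1.47-fold as much MYC RNA (log2 fold change 0.56, SE 0.06, edgeR adjusted p = 6.34e-09). 3-MB-PP1 alone left 0.565-fold (-0.82, SE 0.06, edgeR adjusted p = 8.31e-11), and 3-MB-PP1 after 5-FU left 0.291-fold (-1.78, SE 0.06, edgeR adjusted p = 3.17e-17).

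The sign of the 5-FU effect on MYC thus depended on what followed. 5-FU/3-MB-PP1 cells held 0.756-fold the MYC RNA of DMSO/3-MB-PP1 cells (log2 fold change -0.40, SE 0.06, edgeR adjusted p = 4.21e-06). The drop with 3-MB-PP1 was larger after 5-FU by 0.96 on the log2 scale (interaction -0.96, SE 0.08, edgeR adjusted p = 2.38e-08). Against DMSO/DMSO cells, both drugs together left 0.427-fold (-1.23, SE 0.06, edgeR adjusted p = 3.59e-15). Over the 8 fits that each leave out a library, the interaction lay between -1.07 and -0.87. A gene 3′ of MYC gave another picture. PVT1, a long noncoding RNA beside MYC on chromosome 8, was at 60.5 and 58.9 CPM in 5-FU/3-MB-PP1, 58.7 and 54.4 CPM in 5-FU/DMSO, 36.4 and 39.3 CPM in DMSO/3-MB-PP1, and 32.6 and 37.5 CPM in DMSO/DMSO cells. PVT1 rose with 5-FU alone (0.69, SE 0.08, edgeR adjusted p = 7.42e-08) and with 5-FU before 3-MB-PP1 (0.67, SE 0.08), while its change with 3-MB-PP1 was 0.09 alone and 0.08 after 5-FU, neither called.

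Few or no reads came from the paralogs of MYC. MYCN, best known from neuroblastoma, had 0 counts in all 8 libraries, which allows up to 0.0594 CPM in the deepest library and 0.284 CPM in the shallowest, where limits cover counting error only. MYCL1, the paralog first found amplified in lung cancer, was at 2.69 and 3.24 CPM in 5-FU/3-MB-PP1, 2.17 and 3.06 CPM in 5-FU/DMSO, 3.96 and 4.14 CPM in DMSO/3-MB-PP1, and 3.50 and 3.96 CPM in DMSO/DMSO cells. Its libraries lay lower in both 5-FU groups than in both groups without 5-FU. On 33 to 203 counts per library, and 33 to 52 in those compared for 5-FU alone, it was not called in any comparison. Its log2 fold change for 5-FU alone was -0.50 (SE 0.23, edgeR adjusted p = 0.0805). That value ranged from -0.78 to -0.28 when a library was left out, and was called without 5-FU/DMSO replicate 2 (-0.78, adjusted p = 0.0374). A shorter MYCL1 transcript (NM_005376), with 5 to 43 counts per library, was called lower with both drugs (-1.25, SE 0.47, edgeR adjusted p = 0.029). Per transcript length MYC averaged 125 RPKM over the 8 libraries and MYCL1 0.917 RPKM.

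MAX, the shared partner without which neither MYC nor its antagonists bind well, was at 42.9 and 46.2 CPM in 5-FU/3-MB-PP1, 57.2 and 58.2 CPM in 5-FU/DMSO, 35.98 and 36.7 CPM in DMSO/3-MB-PP1, and 38.2 and 45.9 CPM in DMSO/DMSO cells. The 5-FU/DMSO libraries stood above all others, and those of 5-FU/3-MB-PP1 overlapped with DMSO/DMSO. MAX rose with 5-FU alone (0.46, SE 0.08, edgeR adjusted p = 3.7e-05) and with 5-FU before 3-MB-PP1 (0.30, SE 0.08, edgeR adjusted p = 0.00405), and fell with 3-MB-PP1 after 5-FU (-0.37, SE 0.08, edgeR adjusted p = 0.000742). The fall with 3-MB-PP1 alone (-0.21, SE 0.08, edgeR adjusted p = 0.0481) passed in 3 of 15 alternative settings, where its adjusted p ranged from 0.0111 to 0.631. The rise before 3-MB-PP1 was lost without 5-FU/3-MB-PP1 replicate 2 (adjusted p = 0.0828) and without DMSO/3-MB-PP1 replicate 1 (adjusted p = 0.0514).

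The tables list 5 MAX transcripts, and a read in a shared exon was counted for each. A transcript that ends early (NM_145114) and another that ends far downstream of the rest (NM_197957, which overlaps FNTB on the other strand) held fewer counts. They rose by 0.56 each with 5-FU alone and changed by -0.52 and -0.51 with 3-MB-PP1 after 5-FU, called in both comparisons. Neither was called with 5-FU before 3-MB-PP1 (0.16 and 0.20) or with 3-MB-PP1 alone (-0.13 and -0.15), where the kept MAX transcript was. MAX-AS1, an antisense RNA inside MAX, averaged 82.4 counts against 788.5 for MAX, and it also rose with 5-FU alone (0.63) and fell with 3-MB-PP1 after 5-FU (-0.48). The strand setting of the counts is not given in the sources used here, so reads of MAX and MAX-AS1 cannot be told apart.

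MXD4, which is expressed in many differentiated tissues, was at 28.3 and 26.3 CPM in 5-FU/3-MB-PP1, 39.7 and 33.3 CPM in 5-FU/DMSO, 12.9 and 13.2 CPM in DMSO/3-MB-PP1, and 16.7 and 14.1 CPM in DMSO/DMSO cells. Every library that had received 5-FU stood above every library that had not. 5-FU alone gave 2.36-fold as much MXD4 RNA (log2 fold change 1.24, SE 0.11, edgeR adjusted p = 5.22e-10), and 5-FU before 3-MB-PP1 gave 2.10-fold (1.07, SE 0.11, edgeR adjusted p = 9.36e-09). 3-MB-PP1 after 5-FU lowered it (-0.41, SE 0.10, edgeR adjusted p = 0.00226), a call lost without 5-FU/DMSO replicate 1 (adjusted p = 0.0692), and the value with 3-MB-PP1 alone was -0.25 (SE 0.12, adjusted p = 0.119). With both drugs MXD4 stayed 1.77-fold above DMSO/DMSO cells (0.83, SE 0.11), whereas MYC stood at 0.427-fold.

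MXD1, the founding MXD gene, which rises when many cell types differentiate, was at 5.54 and 5.40 CPM in 5-FU/3-MB-PP1, 5.79 and 5.28 CPM in 5-FU/DMSO, 3.29 and 3.29 CPM in DMSO/3-MB-PP1, and 3.35 and 4.80 CPM in DMSO/DMSO cells. Its libraries after 5-FU also stood above all those without. It rose with 5-FU before 3-MB-PP1 (0.73, SE 0.18, edgeR adjusted p = 0.00251). The change with 5-FU alone, 0.44 (SE 0.19, edgeR adjusted p = 0.0715), was not called, and became 0.72 (adjusted p = 0.0219) without DMSO/DMSO replicate 2. On 35 to 169 counts per library, MXD1 was known less precisely than MXD4.

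MXI1, also called MXD2, was at 29.3 and 27.6 CPM in 5-FU/3-MB-PP1, 37.4 and 40.9 CPM in 5-FU/DMSO, 28.7 and 28.2 CPM in DMSO/3-MB-PP1, and 33.0 and 38.4 CPM in DMSO/DMSO cells. Both groups given 3-MB-PP1 overlapped and lay below both groups given DMSO last, which overlapped as well. MXI1 fell with 3-MB-PP1 after 5-FU (-0.46, SE 0.09, edgeR adjusted p = 0.000219) and with 3-MB-PP1 alone (-0.32, SE 0.08, edgeR adjusted p = 0.00492). The fall with 3-MB-PP1 alone was lost without DMSO/DMSO replicate 2 (-0.21, adjusted p = 0.162) and with limma (adjusted p = 0.0534). That with both drugs (-0.33) was lost without DMSO/DMSO replicate 2 (-0.22, adjusted p = 0.111) and without 5-FU/3-MB-PP1 replicate 2 (adjusted p = 0.0517). Its 5-FU effect was 0.13 alone (SE 0.08) and -0.01 before 3-MB-PP1 (SE 0.09), neither called. The 3 listed MXI1 transcripts, which differ in their starts, changed by between -0.47 and -0.43 with 3-MB-PP1 after 5-FU. They share their 3′ end, and a read in a shared exon was counted for each. Their values are therefore not independent and do not tell the starts apart.

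MXD3, the member of the family found in dividing cells in mouse development, depended on which of its transcripts was read. The transcript with the most counts (NM_001142935, chr5:176732500-176739292 on hg19, minus strand) overlaps the 3′ part of PRELID1, a mitochondrial lipid carrier gene on the plus strand that averaged 4225 counts. It was at 163 and 169 CPM in 5-FU/3-MB-PP1, 149 and 162 CPM in 5-FU/DMSO, 169 and 158 CPM in DMSO/3-MB-PP1, and 161 and 172 CPM in DMSO/DMSO cells, and was not called in any comparison. PRELID1 was equally level, between 223 and 241 CPM in the 8 libraries. With the strand setting not known, the counts of this MXD3 transcript cannot be told apart from those of PRELID1.

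The shorter MXD3 transcript (NM_031300) shares the 5′ boundary at 176739292 with the longer one. Its 3′ end, at 176734205, lies clear of PRELID1. It was chosen after the values were seen. It was at 2.69 and 3.47 CPM in 5-FU/3-MB-PP1, 2.57 and 3.24 CPM in 5-FU/DMSO, 10.3 and 7.90 CPM in DMSO/3-MB-PP1, and 9.11 and 9.52 CPM in DMSO/DMSO cells. Libraries with 5-FU held fewer reads of it than any without. It fell with 5-FU alone (-1.67, SE 0.19, edgeR adjusted p = 6.22e-08) and with 5-FU before 3-MB-PP1 (-1.64, SE 0.18, edgeR adjusted p = 6.17e-08). The values with 3-MB-PP1 were 0.04 alone (SE 0.14) and 0.08 after 5-FU (SE 0.24), neither called. With 5-FU alone this transcript thus fell where MXD4 rose, on 39 to 125 counts in the libraries compared. Over all 8 libraries it held 34 to 530 counts. E2F1, the cell-cycle factor known to drive Mad3 (mouse MXD3), fell with 5-FU alone as well (-2.55, SE 0.12), to 5.59 ± 0.19 CPM in 5-FU/DMSO against 32.8 ± 0.34 CPM in DMSO/DMSO cells (SD, n = 2 libraries each). E2F1 fell with 5-FU before 3-MB-PP1 too (-2.41, SE 0.13). With 3-MB-PP1 alone E2F1 also fell (-0.33, SE 0.09), where this MXD3 transcript was not called. No binding of E2F1 was measured, and a part of E2F1 in the fall of this MXD3 transcript was not tested.

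**Figure D3:**
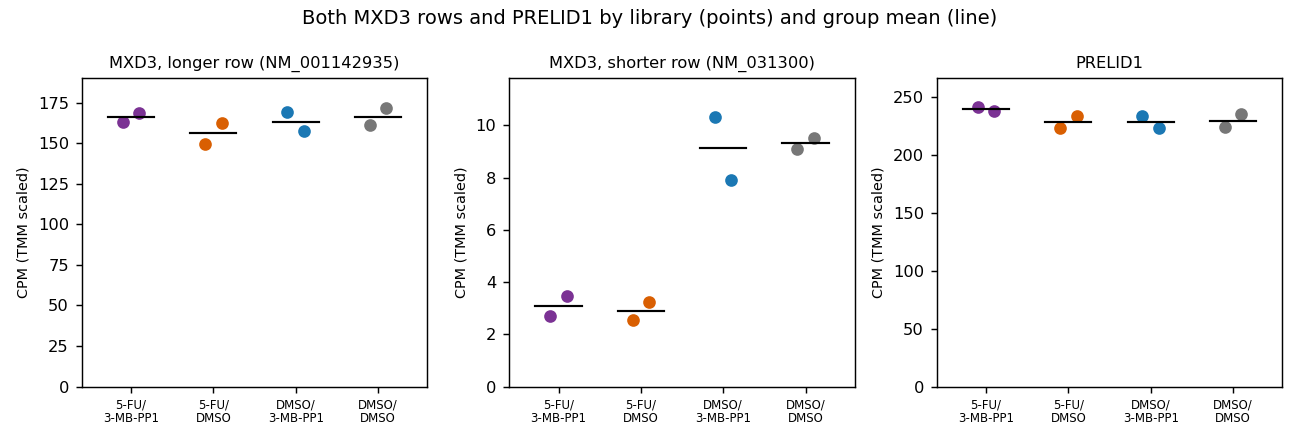
CPM of the longer and the shorter MXD3 transcript and of PRELID1, with 1 point per library and a line at the mean of 2 libraries. The shorter transcript lay between 2.57 and 3.47 CPM in the 4 libraries with 5-FU and between 7.90 and 10.3 CPM in the 4 without, while the longer one and PRELID1 were level.

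MNT, an antagonist present in most cells that pairs with MAX at rest and during growth, was at 14.0 and 12.6 CPM in 5-FU/3-MB-PP1, 18.4 and 19.4 CPM in 5-FU/DMSO, 15.4 and 12.3 CPM in DMSO/3-MB-PP1, and 14.1 and 14.5 CPM in DMSO/DMSO cells. The 5-FU/DMSO libraries stood alone, and the other 3 groups lay together. MNT rose with 5-FU alone (0.41, SE 0.12, edgeR adjusted p = 0.00698) and fell with 3-MB-PP1 after 5-FU (-0.51, SE 0.12, edgeR adjusted p = 0.00203), and was at 0.02 (SE 0.12, adjusted p = 0.943) with 3-MB-PP1 alone. The first of these calls was lost without 5-FU/DMSO replicate 2 (adjusted p = 0.0534). Its interaction was -0.53 (SE 0.17, edgeR adjusted p = 0.0789), not called, though it passed with low counts kept (adjusted p = 0.0342) and without DMSO/3-MB-PP1 replicate 2 (adjusted p = 0.0195).

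MGA, a large protein with a MAX-binding domain and a T-box that belongs to the Polycomb complex PRC1.6, was at 48.7 and 51.3 CPM in 5-FU/3-MB-PP1, 93.3 and 94.4 CPM in 5-FU/DMSO, 63.8 and 60.3 CPM in DMSO/3-MB-PP1, and 96.9 and 100.1 CPM in DMSO/DMSO cells. Its fall with 3-MB-PP1 was the largest of the members after that of MYC in both settings, 0.533-fold after 5-FU (-0.91, SE 0.07, edgeR adjusted p = 1.41e-10) and 0.634-fold alone (-0.66, SE 0.06, edgeR adjusted p = 1.33e-08). 5-FU alone changed it by -0.07 (SE 0.06, adjusted p = 0.385), not called, and 5-FU before 3-MB-PP1 lowered it (-0.32, SE 0.07, edgeR adjusted p = 0.000358). Its interaction was -0.25 (SE 0.09, adjusted p = 0.127), so that a larger fall after 5-FU was not shown for MGA as it was for MYC. CDK7 itself, the kinase named in the series, moved likewise, at 57.7 and 61.6 CPM in 5-FU/3-MB-PP1 and 81.7 and 88.3 CPM in 5-FU/DMSO cells (-0.51, SE 0.07), and at 59.9 and 61.8 CPM in DMSO/3-MB-PP1 and 79.7 and 83.0 CPM in DMSO/DMSO cells (-0.42, SE 0.07).

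Leaving aside MXD3 and MYCN, the members stood per transcript length in the order MYC, MAX, MXI1, MGA, MXD4, MNT, MYCL1 and MXD1, with means over all libraries of 125, 21.0, 9.43, 6.27, 6.08, 3.10, 0.917 and 0.813 RPKM. The ratio of MYC to MAX RNA was 3.09 and 2.91 in 5-FU/3-MB-PP1, 8.16 and 7.76 in 5-FU/DMSO, 4.89 and 4.83 in DMSO/3-MB-PP1, and 7.60 and 7.30 in DMSO/DMSO cells. The groups did not overlap in it. MYC over the sum of MXD1, the shorter MXD3, MXD4, MXI1, MNT and MGA was 2.41 and 2.50 in 5-FU/3-MB-PP1, 6.12 and 5.92 in 5-FU/DMSO, 2.96 and 3.29 in DMSO/3-MB-PP1, and 4.27 and 4.68 in DMSO/DMSO cells. This ratio too kept the 4 groups apart, with 5-FU/DMSO at the top and 5-FU/3-MB-PP1 at the bottom.

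The summed antagonists averaged 25.3 ± 0.30 RPKM in 5-FU/3-MB-PP1, 35.5 ± 0.40 RPKM in 5-FU/DMSO, 26.6 ± 1.77 RPKM in DMSO/3-MB-PP1 and 31.9 ± 1.18 RPKM in DMSO/DMSO cells (SD, n = 2 libraries each). Over MAX they stood at 1.28 and 1.16 in 5-FU/3-MB-PP1, 1.33 and 1.31 in 5-FU/DMSO, 1.65 and 1.47 in DMSO/3-MB-PP1, and 1.78 and 1.56 in DMSO/DMSO cells. These ratios of RNA are given as values, with no test, and no protein was measured.

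**Figure D4:**
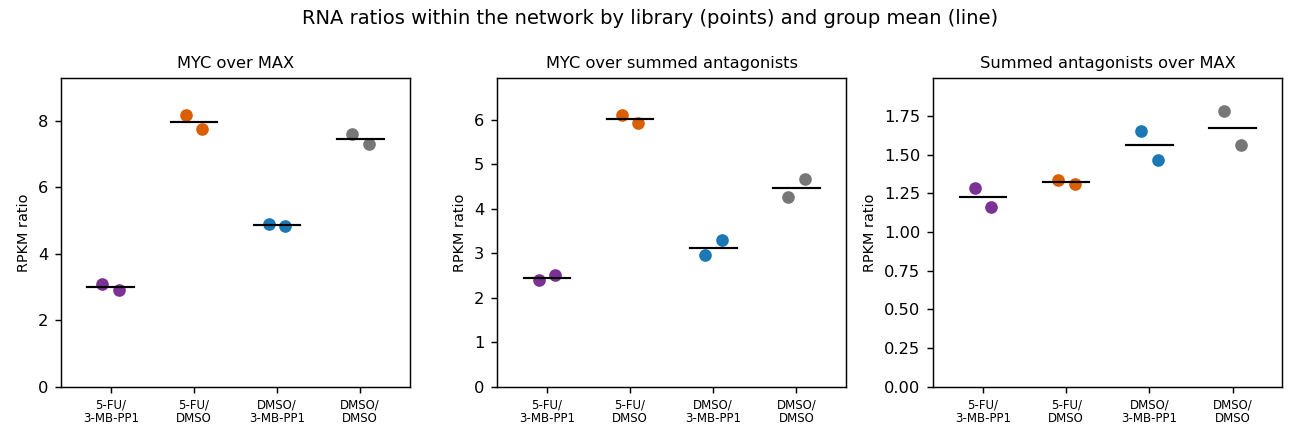
RPKM ratios of MYC to MAX, of MYC to the summed antagonists and of the summed antagonists to MAX, with 1 point per library and a line at the mean of 2 libraries. MYC to MAX lay between 2.91 and 3.09 in 5-FU/3-MB-PP1 and between 7.76 and 8.16 in 5-FU/DMSO cells, while antagonists to MAX lay between 1.16 and 1.78 in all 8 libraries.

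Over the 8 libraries, which fall into 4 groups and so share their treatments, MXI1 and MGA had the log2 CPM pattern most like that of MYC among the members (Pearson r = 0.94 for each), followed by MNT (0.79) and MAX (0.65). A ranking by r covered 9315 tested genes with a mean of at least 10 CPM, a protein-coding transcript and a single place in the genome. The patterns nearest to MYC were those of PITX1 (0.991), KLF13 (0.990), CACNA1H (0.990), ZBTB11 (0.989) and PDE4B (0.989). KLF13, a zinc finger factor, averaged 38.4 ± 0.76 CPM in 5-FU/3-MB-PP1, 80.2 ± 1.89 CPM in 5-FU/DMSO, 42.2 ± 1.80 CPM in DMSO/3-MB-PP1 and 66.6 ± 2.02 CPM in DMSO/DMSO cells (SD, n = 2 libraries each). Its changes with 3-MB-PP1 were -1.06 after 5-FU and -0.67 alone, smaller than those of MYC. The most opposite patterns were those of TMEM38A (-0.986), RBM12B (-0.986), GLYR1 (-0.985), COG4 (-0.984) and FASTKD5 (-0.982). RBM12B averaged 132 ± 4.60 CPM in 5-FU/3-MB-PP1 and 74.2 ± 1.48 CPM in 5-FU/DMSO cells.

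Genes known to be activated by MYC, among them many for ribosome assembly, were read as a list of 60, of which 59 were tested. The median log2 change of all tested genes lay between -0.01 and 0.01 in every comparison. With 3-MB-PP1 alone 25 of the 59 fell and 1 rose, LDHA (median -0.14, or 0.08 with spike-in scaling, under which the median of all genes stood at 0.19), and with 3-MB-PP1 after 5-FU 24 fell and 6 rose (median -0.10). With 5-FU alone 25 fell and 21 rose (median 0.01), and with both drugs 32 fell and 10 rose (median -0.20). As shares of the list, 42.4% fell and 1.69% rose with 3-MB-PP1 alone, 40.7% and 10.2% with 3-MB-PP1 after 5-FU, 42.4% and 35.6% with 5-FU alone, and 54.2% and 16.9% with both drugs. Among all tested genes 16.9% fell and 11.5% rose with 3-MB-PP1 alone, 17.2% and 15.7% after 5-FU, 22.7% and 21.2% with 5-FU alone, and 26.2% and 23.9% with both drugs, so the share that rose with both drugs was below that of all genes. Most of these genes thus changed less with 3-MB-PP1 than MYC did, and the interaction was called for 2 of them, POLR3D and HSPD1, in opposite directions. That is 1.69% of the list with each sign, near the 2.11% with a positive and 2% with a negative sign among all tested genes.

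TFAP4, a MYC-induced factor that represses CDKN1A, was at 12.7 ± 0.44 CPM in 5-FU/3-MB-PP1 against 30.9 ± 2.25 CPM in 5-FU/DMSO cells (-1.28, SE 0.11), and at 17.0 ± 2.17 CPM in DMSO/3-MB-PP1 against 35.2 ± 1.09 CPM in DMSO/DMSO cells (-0.998, SE 0.10). GRWD1, a ribosome assembly factor, fell by 0.87 after 5-FU and by 0.86 alone, and SLC19A1, the folate carrier, fell by 0.87 and 0.79. PPAN, a ribosome assembly factor, fell by 0.85 after 5-FU, with reads that the PPAN-P2RY11 readthrough transcript shares. CDC25A, a phosphatase that drives entry into S phase, fell with 5-FU alone to 21.6 ± 0.58 CPM in 5-FU/DMSO against 93.7 ± 5.20 CPM in DMSO/DMSO cells (-2.12, SE 0.08), where MYC rose. RRP12, for ribosome export, rose with 5-FU alone (0.77, SE 0.06) and before 3-MB-PP1 (0.75, SE 0.06), and POLR3D, a subunit of RNA polymerase III, rose with 5-FU alone (0.61, SE 0.08).

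Genes known to be repressed by MYC were read as a list of 22, of which 19 were tested. With 5-FU alone 13 of them rose and 1 fell (median 0.71), and with both drugs 12 rose and 4 fell (median 0.39). The shares that rose were 68.4% and 63.2%, against 21.2% and 23.9% of all tested genes. The gene that fell with 5-FU alone was CDKN1B. The list holds CDKN1A and GADD45A, which are p53 targets, and CDKN1A rose by 2.98 and GADD45A by 1.19 with 5-FU alone, while MYC rose too. With 3-MB-PP1 alone 7 rose and 3 fell, CDKN1A, CEBPA and VEGFA (median 0.03, or 0.30 with spike-in scaling and 0.11 above the shift of all genes), and MYC fell. With 3-MB-PP1 after 5-FU 1 rose, ITGB1, and 8 fell (median -0.21), and MYC fell again. Alone 36.8% of the list rose and 15.8% fell, against 11.5% and 16.9% of all tested genes, and after 5-FU 5.26% rose and 42.1% fell, against 15.7% and 17.2%. The interaction was called with a negative sign for 9 of the 19, against 2% of all tested genes, and CDKN1A was among them (-0.67). HES1, a NOTCH target, had the largest (-1.15, SE 0.23, edgeR adjusted p = 0.00339), and fell with 3-MB-PP1 after 5-FU to 5.07 ± 1.13 CPM in 5-FU/3-MB-PP1 against 13.9 ± 0.69 CPM in 5-FU/DMSO cells. THBS1, NDRG1 and ID2 followed at -1.02, -1.002 and -0.94. NDRG1, a gene of growth arrest and differentiation, rose with 3-MB-PP1 alone (0.60, SE 0.10) and with 5-FU alone (1.54, SE 0.10).

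**Figure D5:**
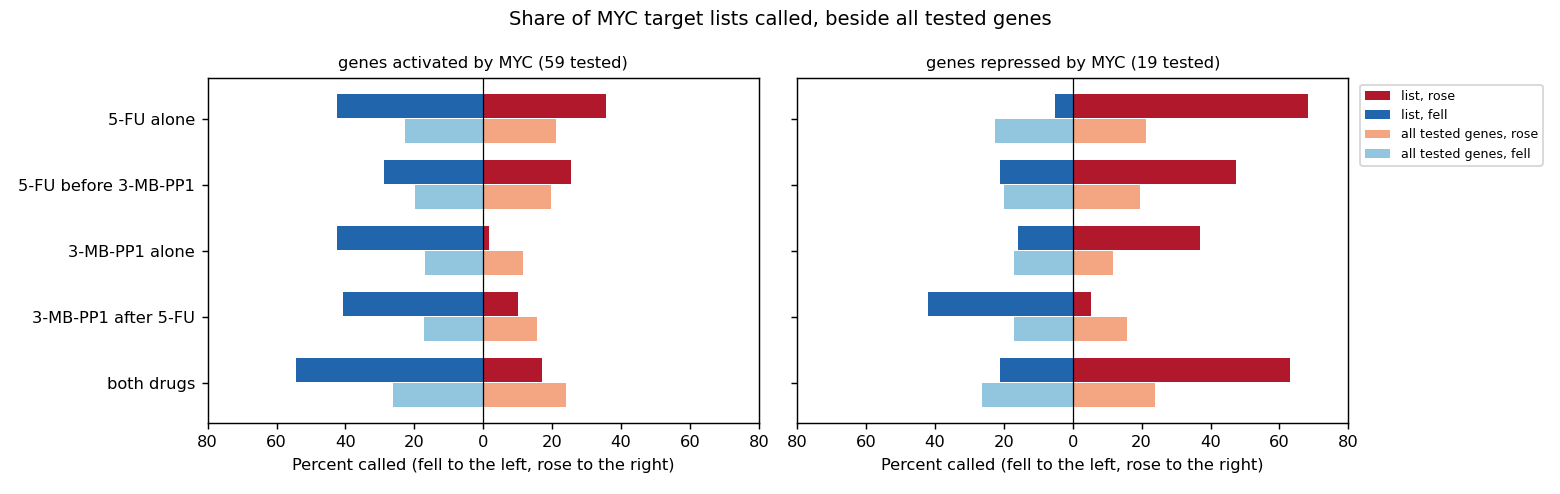
Percent of tested genes that were called lower (left) and higher (right) in 5 comparisons, for genes activated by MYC and genes repressed by MYC, each above the share among all 15723 tested genes. Of the 59 activated genes 25 fell and 1 rose with 3-MB-PP1 alone, and of the 19 repressed genes 13 rose and 1 fell with 5-FU alone.

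The cofactors of the network were read from lists of known genes in the same way. Of 10 genes of PRC1.6, the complex of MGA, 7 fell with 5-FU alone (median -0.25), 4 fell and 1 rose with 3-MB-PP1 alone (median -0.11, or 0.08 with spike-in scaling), and 3 fell and 2 rose with 3-MB-PP1 after 5-FU (median -0.04). Those that fell in both settings of 3-MB-PP1 were E2F6 and RING1, joined by PCGF6 and WDR5 alone and by L3MBTL2 after 5-FU. The shares that fell were 70% with 5-FU alone, against 22.7% of all tested genes, 40% against 16.9% with 3-MB-PP1 alone, and 30% against 17.2% after 5-FU. The shares that rose with 3-MB-PP1, 10% alone and 20% after 5-FU, were near the 11.5% and 15.7% of all genes. E2F6, a DNA-binding subunit of the complex, was at 19.4 ± 0.49 CPM in DMSO/3-MB-PP1 against 45.6 ± 0.92 CPM in DMSO/DMSO cells (-1.22, SE 0.08, edgeR adjusted p = 2.82e-11). After 5-FU it was at 19.1 ± 0.77 CPM in 5-FU/3-MB-PP1 against 38.4 ± 1.12 CPM in 5-FU/DMSO cells (-1.01, SE 0.09). PCGF6, the subunit that marks this complex among Polycomb complexes, fell with 5-FU alone (-0.95, SE 0.07) and with 3-MB-PP1 alone (-0.44, SE 0.07). RYBP, an adaptor subunit, rose with 3-MB-PP1 alone (0.32, SE 0.08) and after 5-FU (0.35, SE 0.08), and CBX3, a heterochromatin protein, rose after 5-FU (0.27, SE 0.05).

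Of 10 corepressor genes used by MXD proteins and MNT, 6 fell and 2 rose with 5-FU alone (median -0.27). These were 60% and 20% of the list, against 22.7% and 21.2% of all tested genes, so the share that rose was near that of all genes. With 3-MB-PP1 alone 1 of them was called, SIN3A, the scaffold that MXD proteins bind, at 68.6 ± 0.48 CPM in DMSO/3-MB-PP1 against 117.8 ± 2.65 CPM in DMSO/DMSO cells (-0.78, SE 0.06, edgeR adjusted p = 6.99e-10). That is 10% of the list, below the 16.9% of all tested genes that fell there. With 3-MB-PP1 after 5-FU, SIN3A (-0.51, SE 0.07) and SAP30 (-0.53, SE 0.16) fell and 5 rose, among them HDAC1, HDAC2 and the histone chaperone genes RBBP4 (0.41, SE 0.06) and RBBP7 (0.34, SE 0.06). The risers were 50% of the list, against 15.7% of all tested genes, and the 20% that fell were near the 17.2% of all genes. RBBP4 overlaps SYNC on the other strand. The 2 that rose with 5-FU alone were NCOR1 and SIN3B, the paralog of SIN3A (0.57, SE 0.07), where SIN3A fell (-0.76, SE 0.06).

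Of 15 genes for coactivators and binding partners of MYC, 4 rose, among them ZBTB17, KAT2A and CREBBP, and 6 fell with 5-FU alone (median -0.02, or 0.10 with spike-in scaling), and 4 fell with 3-MB-PP1 alone, KAT5, HCFC1, PAF1 and WDR5 (median -0.06, or 0.17 with spike-in scaling). After 5-FU KAT5, HCFC1, EP300 and CREBBP fell and TRRAP rose (median -0.06). With 5-FU alone 26.7% of the list rose, near the 21.2% of all tested genes, and 40% fell, against 22.7%. With 3-MB-PP1, alone and after 5-FU, 26.7% fell, against 16.9% and 17.2% of all tested genes. ZBTB17, whose protein MIZ1 brings MYC to repressed genes, rose with 5-FU alone to 42.5 ± 1.23 CPM in 5-FU/DMSO against 26.9 ± 0.73 CPM in DMSO/DMSO cells (0.66, SE 0.08). KAT5, an acetyltransferase, fell with 3-MB-PP1 alone (-0.48, SE 0.08) and after 5-FU (-0.60, SE 0.08), and overlaps RNASEH2C on the other strand. WDR5 also counts among the PRC1.6 genes.

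Of 18 genes for the turnover of MYC protein, 2 rose, FBXW7 and GSK3B, which mark MYC for degradation, and 6 fell with 5-FU alone (median 0.00). With 3-MB-PP1 alone 5 fell, AURKA, PLK1, PPP2R5A, TRPC4AP and USP37 (median -0.06, or 0.16 with spike-in scaling). With 3-MB-PP1 after 5-FU KIAA1524 and SKP2 rose and FBXO32 and FBXL14 fell (median -0.01). With 5-FU alone 11.1% of the list rose and 33.3% fell, against 21.2% and 22.7% of all tested genes. With 3-MB-PP1 alone 27.8% fell, against 16.9%, and after 5-FU 11.1% rose and 11.1% fell, both below the 15.7% and 17.2% of all genes. The falls with 5-FU were led by KIAA1524 (-1.40, SE 0.07), whose protein CIP2A shields MYC from a phosphatase, by the deubiquitinase USP37 (-1.15, SE 0.07), by AURKA (-1.14, SE 0.06), a mitotic kinase that stabilises MYCN, and by SKP2 (-1.09, SE 0.07), a subunit of a ubiquitin ligase. AURKA was at 57.3 ± 2.0 CPM in 5-FU/3-MB-PP1, 63.8 ± 3.0 CPM in 5-FU/DMSO, 96.3 ± 0.03 CPM in DMSO/3-MB-PP1 and 140.9 ± 0.16 CPM in DMSO/DMSO cells.

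Of 18 genes upstream of MYC transcription, 15 were tested, E2F1 and PVT1 among them. With 5-FU alone 5 rose, among them STAT3, PVT1, CTNNB1 and NME2, and 6 fell (median 0.05). With 3-MB-PP1 alone 1 rose, SMAD3, and 6 fell (median -0.05, or 0.19 with spike-in scaling). With 3-MB-PP1 after 5-FU STAT3, CNBP and HNRNPK rose and TCF7L2, CTCF, E2F4, FUBP1 and SMAD4 fell (median -0.06). With 5-FU alone 33.3% of the list rose and 40% fell, against 21.2% and 22.7% of all tested genes. With 3-MB-PP1 alone 6.67% rose and 40% fell, against 11.5% and 16.9%, and after 5-FU 20% rose and 33.3% fell, against 15.7% and 17.2%. STAT3, a factor that binds the MYC promoter, rose with 5-FU alone (0.92, SE 0.06) and before 3-MB-PP1 (1.03, SE 0.05). TCF7L2, the factor through which WNT signals reach MYC in the gut, was at 84.8 ± 1.30 CPM in DMSO/3-MB-PP1 against 136.0 ± 7.44 CPM in DMSO/DMSO cells (-0.68, SE 0.06), and at 71.5 ± 3.47 CPM in 5-FU/3-MB-PP1 against 105.3 ± 1.49 CPM in 5-FU/DMSO cells (-0.56, SE 0.06). CTCF, which binds upstream of the MYC gene, fell with 3-MB-PP1 alone (-0.60, SE 0.06) and after 5-FU (-0.40, SE 0.06).

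The MLX branch, in which MLX takes the place of MAX and the glucose sensors MLXIP and MLXIPL that of MYC, was read with its targets TXNIP and ARRDC4. TXNIP was nearly absent, at 0 counts in 6 of the 8 libraries, and was not tested. With 5-FU alone ARRDC4, MLX and MLXIPL rose, and with 3-MB-PP1 after 5-FU ARRDC4, MLX and MLXIP fell, of 4 tested genes, where 21.2% of all tested genes rose and 17.2% fell. ARRDC4, an arrestin gene, was at 28.4 ± 0.06 CPM in 5-FU/3-MB-PP1, 54.0 ± 3.54 CPM in 5-FU/DMSO, 9.63 ± 0.05 CPM in DMSO/3-MB-PP1 and 9.66 ± 0.99 CPM in DMSO/DMSO cells. It rose with 5-FU alone (2.48, SE 0.10, edgeR adjusted p = 1.3e-16), and its interaction of -0.93 (SE 0.15, edgeR adjusted p = 0.000303) was close in size to that of MYC. Without 5-FU its change with 3-MB-PP1 was -0.00 (SE 0.12), not called. MLX, the DNA-binding partner in this branch, rose with 5-FU alone (0.27, SE 0.06) and fell with 3-MB-PP1 after 5-FU (-0.20, SE 0.06). It overlaps PSMC3IP, which averaged 554 counts, on the other strand, so their reads cannot be told apart.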

How the data were processed

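Total RNA of HCT-116 cells was depleted of ribosomal RNA with Ribo-Zero, per the labels' protocols, and read single-end. TopHat2 2.0.13 and the genome build hg19 are named in the submitters' processing notes. Not given in the sources used here were the counter, its strand setting and the annotation. Each deposited table lists, for 41735 sequences (92 ERCC spike-ins and 41643 RefSeq transcripts), a whole-number read count that the authors had not normalized, and an RPKM value from the authors, which in the tables is proportional to the count over transcript length with 1 constant per library. Reads of shared exons were counted once per transcript. For 5902 of 6260 transcripts that lacked a symbol, the accession gave one in RefSeq's GRCh38.p14 table, used for names and promoter sequences alone. Levels between genes are compared in RPKM, as computed by the authors, and all other levels are CPM after TMM scaling.

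A gene was read from the transcript whose mean count was highest under its symbol, leaving 23885 genes. In edgeR 4.0.16 (R 4.3.3), filterByExpr left 15723 genes, and quasi-likelihood F tests came from 1 model with a mean per group and 4 residual degrees of freedom (common biological coefficient of variation 0.0423). Two-sided p-values were adjusted by Benjamini-Hochberg over all tested genes within each comparison. SEs were derived from the F statistics. The fit was tested on simulated data. Alternatives were DESeq2 1.42.0, other scalings including the ERCC spike-ins, no filter on low counts, only the 2 groups compared, limma 3.58.1 on log2(RPKM + 1), another transcript per gene, the replicate number as a block, and each library left out. Another transcript of MXD3 was added after the data were seen.

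The members and gene lists were chosen with earlier results of these data known. Named genes are all members, up to 4 genes per list and comparison by size of change among called genes whose libraries did not overlap, the 5 genes most like and 5 most unlike MYC, CDKN1A and CDK7. Some genes this rule gave are left out, and some items are not reported here. The shorter MXD3 transcript, PRELID1, MAX-AS1, the full names behind small counts in a list, and genes named for going against their list were chosen after their values were seen.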

Additional observations from a re-analysis of the deposited data

Results flagged for a closer look

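The fall of MYC with 3-MB-PP1 differed between cells with and without 5-FU by a test of the difference itself. MYC stood at 0.291-fold of 5-FU/DMSO cells in 5-FU/3-MB-PP1 cells and at 0.565-fold of DMSO/DMSO cells in DMSO/3-MB-PP1 cells, and the log2 difference between these effects was -0.96 (SE 0.08, edgeR adjusted p = 2.38e-08). The 2 libraries of each group stood on the same side. Depth differed most within DMSO/3-MB-PP1 cells, from 10580105 to 50501212 counts, with MYC at 195 and 196 CPM in these libraries.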

How the results depend on the processing

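Of the 24 called values of members, 18 stayed called in every setting run for them other than the spike-in scaling (15, or 14 for the interaction, which the fit of only the 2 groups compared does not give), and none changed sign. With library sizes from the spike-ins 0 members were called in each comparison (edgeR). At an unadjusted p under 0.05 there were 1 with 5-FU alone (MXD4), 2 with 3-MB-PP1 after 5-FU and 2 with both drugs (MYC and MGA in each). Of all 15723 genes tested, 1132, 563 and 1540 passed at that threshold in the same comparisons. MYC was then 0.65 with 5-FU alone, -0.63 with 3-MB-PP1 alone, -1.90 with 3-MB-PP1 after 5-FU, -0.62 with 5-FU before 3-MB-PP1, -1.25 with both drugs and -1.27 for the interaction. The median of all genes shifted by 0.126, 0.189, -0.115, -0.189, 0.00117 and -0.306 under it. Relative to that shift MYC was at 0.53, -0.82, -1.79, -0.43, -1.25 and -0.97. The number of called members with 3-MB-PP1 alone was 2 with limma and 2 to 4 when a library was left out, with 2 without DMSO/DMSO replicate 2. For the interaction it was 2 with low counts kept and 1 to 2 when a library was left out. All-gene calls were 243, 112, 53, 140, 427 and 0 under the spike-ins (75 at an unadjusted p under 0.05 for the last), with 107 higher and 5 lower for 3-MB-PP1 alone, 41 and 12 after 5-FU, 20 and 120 for 5-FU before 3-MB-PP1 and 93 and 150 for 5-FU alone. DESeq2 called 2682 genes with 3-MB-PP1 alone, 3383 after 5-FU and 379 for the interaction, where edgeR called 4475, 5174 and 645, and limma called 146 for the interaction. Leaving out a library gave 248 to 919 for the interaction, as few as 2973 with 3-MB-PP1 alone (without DMSO/DMSO replicate 1) and 3341 after 5-FU (without 5-FU/3-MB-PP1 replicate 2).

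Sign changes were limited to values that had not been called. Under the spike-ins they were the MYCL1 interaction (-0.19), MGA with 5-FU alone (0.042), and MXD3 with 5-FU alone (0.0093), with 3-MB-PP1 alone (0.17), after 5-FU (-0.020), with 5-FU before 3-MB-PP1 (-0.18) and for the interaction (-0.19). With limma they were the MYCL1 interaction (-0.00105), MXD3 with 3-MB-PP1 alone (0.016) and with both drugs (0.025), and MNT with 3-MB-PP1 alone (-0.0063). MXD3 with both drugs became 0.0061 in DESeq2, 0.0061 with its size factors in edgeR and 0.00570 in the fit of only the 2 groups compared. MNT with 3-MB-PP1 alone became -0.00341 in DESeq2, and MXI1 with 5-FU before 3-MB-PP1 became 0.017 with the transcript of highest RPKM. With the shorter MXD3 transcript the values were 0.045 with 3-MB-PP1 alone and -1.64 with 5-FU before it. When a library was left out, MYCL1 ranged from -0.049 to 0.45 after 5-FU and from -0.15 to 0.35 for the interaction, MAX with both drugs from -0.043 to 0.22, and MXD1 after 5-FU from -0.083 to 0.046. MXD3 ranged from -0.077 to 0.026 with 3-MB-PP1 alone, from -0.025 to 0.074 with 5-FU before it and from -0.049 to 0.044 with both drugs. MXI1 with 5-FU before 3-MB-PP1 ranged from -0.052 to 0.030, and MNT from -0.21 to 0.11 with 3-MB-PP1 alone and with 5-FU before it. Same-numbered libraries did not deviate together (r from -0.058 to 0.046 between groups) and the labels give the number no meaning. With the replicate number as a block, MAX with 3-MB-PP1 alone was -0.20 (adjusted p = 0.0568) and no longer called, MNT with 3-MB-PP1 alone was -0.0033, and all-gene calls were 6943, 4516, 5236, 6258, 7926 and 677 against 6903, 4475, 5174, 6208, 7884 and 645 without it. The cause of these changes was not tested.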
